A study of Mus musculus with 70 samples.

Results

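The genes described here are the 5 members of the ABCA5-like transporter cluster of mouse chromosome 11, Abca8b, Abca8a, Abca9, Abca6 and Abca5, out of 50789 gene identifiers in the count table. All 5 were found by symbol, and all 5 passed the low-count filter in every tissue. The cluster was selected on a value measured in these data, namely that Abca8a was higher than WT in both knockouts in all 3 tissues. The levels of Abca8a against WT are therefore given as a description with no test. The other 4 genes were taken because they lie beside it, and their comparisons are tested.

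Capicua is a DNA-binding repressor with a short and a long isoform that differ at the amino terminus. Cic-S-KO mice lack the short isoform and Cic-L-KO mice lack the long isoform, as the names in the labels give it, and WT animals were littermates pooled over both lines. Lung was collected at postnatal day 6 and labelled batch 1, and cortex and cerebellum were collected at 12 weeks and labelled batch 2. Each of the 9 groups held 8 samples, except Cic-S-KO cortex and Cic-S-KO cerebellum with 7 each, 70 in all. Both knockouts are labelled only by name, with no statement of the allele or of whether the deletion was limited to some cells. The counts are per gene, so the loss of an isoform could not be checked here. Lung differs from the brain samples in age and batch as well as in tissue, and these cannot be told apart, so lung and brain were not compared by a test.

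Libraries held between 17798655 and 35523037 counted reads. Over the 238 pairs of replicates within groups, 0 were identical and the smallest chi-square per degree of freedom was 4.17, above sampling noise. Markers matched the labelled tissues: summed over 6 neuron markers, the level was 7059 to 7714 CPM in WT cortex, 4780 to 5507 in WT cerebellum and 2.60 to 4.26 in WT lung. Summed over 8 lung epithelial markers it was 18159 to 22299 CPM in WT lung and at most 198 in WT brain samples. The labels do not say that samples came from different animals, so the p-values measure the spread between samples, whatever its source. One brain library stood apart in the genes described here, Cic-S-KO cerebellum replicate 6, and values of Abca8a, Abca8b and Abca5 that it bears on are given with and without it.

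ABCA proteins are full-length transporters with a pair of transmembrane domains and a pair of ATP-binding cassettes, and they move lipids across or out of membranes. The ABCA5-like genes arose by tandem duplication. The human locus holds a single ABCA8, while the mouse carries Abca8a and Abca8b. ABCA8 has been linked to cholesterol efflux and high-density lipoprotein in liver and to sphingomyelin production in oligodendrocytes, the cells that make myelin. ABCA5 sits in lysosomal and late endosomal membranes and has been linked to cholesterol handling, and ABCA9 and ABCA6 have been described as genes that respond to cellular cholesterol. These are background, not results.

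In the GENCODE M21 annotation of GRCm38, the build named in the submitters' processing notes, the 5 genes lie head to tail on the minus strand over 405.527 kb, chr11:109932190-110337716. By rising coordinate they run Abca8b (109932190 to 109995845), Abca8a (110025634 to 110095978), Abca9 (110100749 to 110168196), Abca6 (110176820 to 110251776) and Abca5 (110269369 to 110337716). Only 4.771 kb separate Abca8a from Abca9, and 29.789 kb separate Abca8b from Abca8a. No other protein-coding gene is annotated inside the cluster. An antisense gene, Gm11697, overlaps Abca8b. It had 0 to 3 counts in any library against 118 to 1522 for Abca8b, and since the sources used here do not say whether counting used strand, reads of the overlap cannot be assigned to either.

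Reads of near-identical paralogues can be split or lost in counting, so the likeness of the 5 transcripts was measured. Abca8a and Abca8b, each 1620 residues long, were the closest pair, with 66.9% identical residues and 74.8% identical coding bases. Abca8a shared 62.7% of its residues with Abca9, 51.3% with Abca6 and 41.2% with Abca5, the most distant member. The longest stretches that Abca8a and Abca8b share without a mismatch lie in the coding sequence, and the 2 longest are shown because a read inside them fits either gene. The first covers coding bases 1967 to 2063 of Abca8a and the second coding bases 4194 to 4280.
Shared stretch of 97 bases: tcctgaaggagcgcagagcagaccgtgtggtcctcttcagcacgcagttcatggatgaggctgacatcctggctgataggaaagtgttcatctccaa
Shared stretch of 87 bases: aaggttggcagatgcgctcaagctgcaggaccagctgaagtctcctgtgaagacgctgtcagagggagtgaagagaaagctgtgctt
Of the windows of 50 bases in the Abca8a transcripts, 1.64% also occurred in Abca8b, and of those of 75 bases, 0.559% did. No window of 100 bases occurred in both. The read length is not given in the sources used here. Between the other members, Abca9 and Abca6 shared 13 windows of 50 bases and no further pair shared any. Most of the Abca8a sequence is therefore distinct from its nearest paralogue at the window lengths measured, but how the authors' counting treated reads of the shared stretches is not given in the sources used here.

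The sequences upstream of the start sites differ in base composition. Windows are shown to set Abca8a and its nearest paralogue beside Abca5, the member with the highest level in brain, which has more CpG dinucleotides there. Each window is the first 200 bases of the RefSeq promoter on GRCm38.p6, with CpG dinucleotides in capitals. That promoter runs from 250 bases before the start to 50 bases after it, so the bases next to the start are left out.
Abca8a, chr11:110095988-110096187, minus strand: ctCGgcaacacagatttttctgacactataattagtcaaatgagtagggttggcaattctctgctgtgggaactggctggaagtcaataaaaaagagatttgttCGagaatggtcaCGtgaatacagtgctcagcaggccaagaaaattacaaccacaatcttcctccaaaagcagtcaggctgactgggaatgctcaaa
Abca8b, chr11:109995896-109996095, minus strand: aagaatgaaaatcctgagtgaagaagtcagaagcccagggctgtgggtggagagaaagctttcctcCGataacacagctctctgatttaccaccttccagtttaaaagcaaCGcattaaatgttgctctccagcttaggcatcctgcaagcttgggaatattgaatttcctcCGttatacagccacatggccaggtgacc
Abca5, chr11:110337767-110337966, minus strand: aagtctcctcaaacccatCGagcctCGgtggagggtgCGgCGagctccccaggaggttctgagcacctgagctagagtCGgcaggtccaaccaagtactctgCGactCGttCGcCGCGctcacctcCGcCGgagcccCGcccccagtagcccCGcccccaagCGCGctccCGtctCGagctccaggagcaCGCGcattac
The Abca8a window holds 3 CpG and 43% G or C, and the Abca8b window 3 CpG and 46.5%. The Abca5 window holds 20 CpG and 67.5% G or C. Over the full promoters of 300 bases, Abca8b held 10 CpG and 51.3% G or C, Abca8a 4 and 44.3%, and Abca5 40 and 72.3%. Over 32851 RefSeq windows of the same length, the median was 4 CpG with quartiles of 2 and 11, and 91.6% of windows held no more CpG than that of Abca5. The Abca8a window lies near the middle, as 45.8% of windows held no more CpG, and that of Abca9 is sparser with 1 CpG. Abca6 had no entry.

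Capicua binds octamers of the kind TGAATGAA. In the 300-base RefSeq promoters, TGAATGAA, TGAATGGA, TCAATGAA and TCAATGGA, read on both strands, occurred in 1.30%, 1.21%, 0.749% and 0.670% of 32851 promoters, and any of the 4 octamers in 3.84%. None of the promoters of Abca8a, Abca8b, Abca9 and Abca5 held such an octamer, which says only that these letters are not in these windows.

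In WT animals the order of the members by level was the same in both brain regions. It was another in lung, which also differs from them in age and batch. Levels of different genes are compared as CPM (read counts scaled to library size after TMM normalisation) per kb of exon. In WT lung Abca8a was the highest of the 5 at 3.76 ± 0.390 CPM per kb (SD, n = 8), and its range did not overlap that of Abca5, the next at 2.89 ± 0.375. Abca9 followed at 2.40 ± 0.245, and Abca8b and Abca6 were near 1 CPM per kb with overlapping ranges. In WT cortex the order was Abca5 at 7.36 ± 0.566 CPM per kb, Abca8b at 3.55 ± 0.366, Abca9 at 1.89 ± 0.360, Abca8a at 1.55 ± 0.156 and Abca6 at 0.660 ± 0.101, where only Abca9 and Abca8a overlapped. WT cerebellum had the same order, from Abca5 at 8.78 ± 0.483 to Abca6 at 0.457 ± 0.172 CPM per kb, and again only Abca9 and Abca8a overlapped. Abca8a was thus the leading member in WT lung and the fourth in both WT brain regions.

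**Figure D1:**
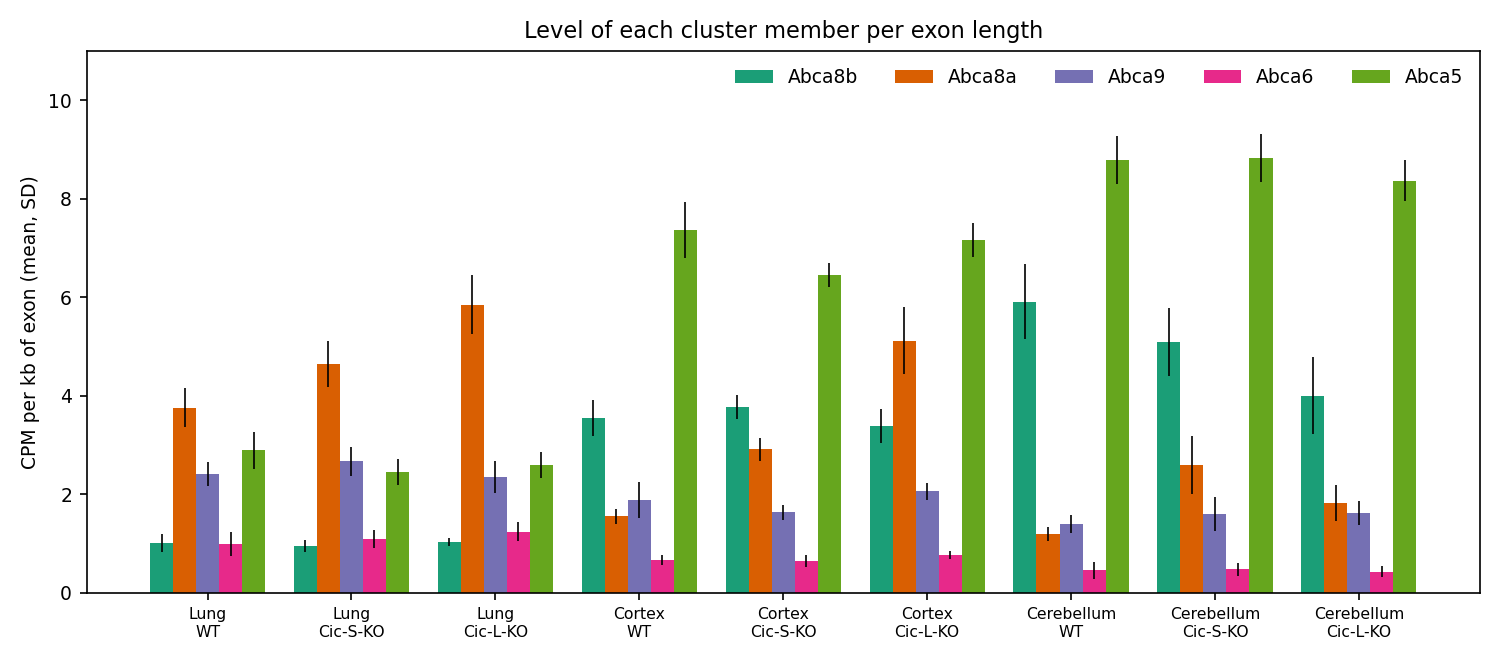
Bars give the mean level of each of the 5 cluster members, in CPM per kb of exon, in the 9 groups, with the SD over samples as error bars (n = 8 samples, but 7 for Cic-S-KO in each brain region). Abca5 leads in every brain group and Abca8a in every lung group, and the Abca8a bar stands above that of Abca8b only in Cic-L-KO among the cortex groups.

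Between the WT brain regions, which share age and batch, all 5 members passed the test (edgeR quasi-likelihood, Benjamini-Hochberg adjusted p under 0.05), as did 73.5% of the 18032 genes tested, so a difference between regions was the usual result. Abca8b was higher in cerebellum by a log2 difference of 0.65 ± 0.09 (SE; adjusted p = 2.35e-08) and Abca5 by 0.17 ± 0.04 (adjusted p = 0.000181). The other 3 were lower in cerebellum: Abca8a by a log2 difference of -0.46 ± 0.11 (adjusted p = 0.000137), Abca9 by -0.52 ± 0.10 (adjusted p = 1.52e-05) and Abca6 by -0.62 ± 0.17 (adjusted p = 0.000981). The nearest paralogues Abca8a and Abca8b thus differed between the regions in opposite directions.

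Abca8a, the member the cluster was chosen for, had its widest range of levels in cortex. Across the 8 WT cortex samples it was 8.44 CPM at the lowest, 9.54 at the median and 11.1 at the highest. In Cic-S-KO cortex it was 16.3, 18.4 and 20.3 CPM, and in Cic-L-KO cortex 26.2, 31.9 and 40.3 CPM. The 3 genotypes did not overlap: every Cic-S-KO sample was above every WT sample, and every Cic-L-KO sample was above every Cic-S-KO sample. As a description of the values that chose it, Cic-S-KO had a log2 fold change of 0.91 ± 0.08 (SE) over WT, a factor of 1.87, while Cic-L-KO had one of 1.72 ± 0.07, a factor of 3.29. Of 16974 genes tested in cortex, 119 had a larger log2 fold change in Cic-S-KO, while 54 did in Cic-L-KO.

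In cerebellum the order of the knockouts was the other way round. Abca8a was 5.73 CPM at the lowest, 7.48 at the median and 8.98 at the highest in WT, 13.2, 15.2 and 24.3 in Cic-S-KO, and 8.02, 11.4 and 14.5 in Cic-L-KO. All 7 Cic-S-KO samples were above all WT samples, while Cic-L-KO overlapped both. Relative to WT, the log2 fold change of Cic-S-KO was 1.12 ± 0.13, with 29 of 16643 genes larger, and that of Cic-L-KO was 0.61 ± 0.12, with 488 genes larger. The value of 24.3 CPM came from replicate 6, and without that library the Cic-S-KO value was 0.99.

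In lung Abca8a started from the highest WT level of the 3 tissues. WT samples had 20.8 CPM at the lowest, 22.8 at the median and 28.7 at the highest, Cic-S-KO samples 25.4, 28.9 and 34.1, and Cic-L-KO samples 29.4, 37.6 and 40.7. Cic-S-KO overlapped both other genotypes, while all Cic-L-KO samples were above all WT samples. Relative to WT, the log2 fold change of Cic-S-KO was 0.31 ± 0.07, and 2507 of 16695 genes had a larger one, while that of Cic-L-KO was 0.64 ± 0.07, and 388 genes had a larger one. The lung Cic-S-KO value lies closest to the margin of the selection.

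Ordered over the 9 groups, the mean level of Abca8a fell from Cic-L-KO lung at 36.7 ± 3.80 CPM (SD) and Cic-L-KO cortex at 32.1 ± 4.27 to Cic-S-KO lung at 29.2 ± 2.93 and WT lung at 23.6 ± 2.45. Below these came Cic-S-KO cortex at 18.3 ± 1.48 CPM, Cic-S-KO cerebellum at 16.2 ± 3.70, Cic-L-KO cerebellum at 11.4 ± 2.31, WT cortex at 9.74 ± 0.979 and WT cerebellum at 7.47 ± 0.936. Each group overlapped the next in this order except WT lung and Cic-S-KO cortex. Normalisation was done within each tissue. Both knockouts of a tissue were set against the same WT samples, so their differences from WT are not independent. In Cic-L-KO cortex Abca8a reached 5.11 ± 0.681 CPM per kb and was the second member of the cluster, with no overlap with Abca8b at 3.38 ± 0.351.

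**Figure D2:**
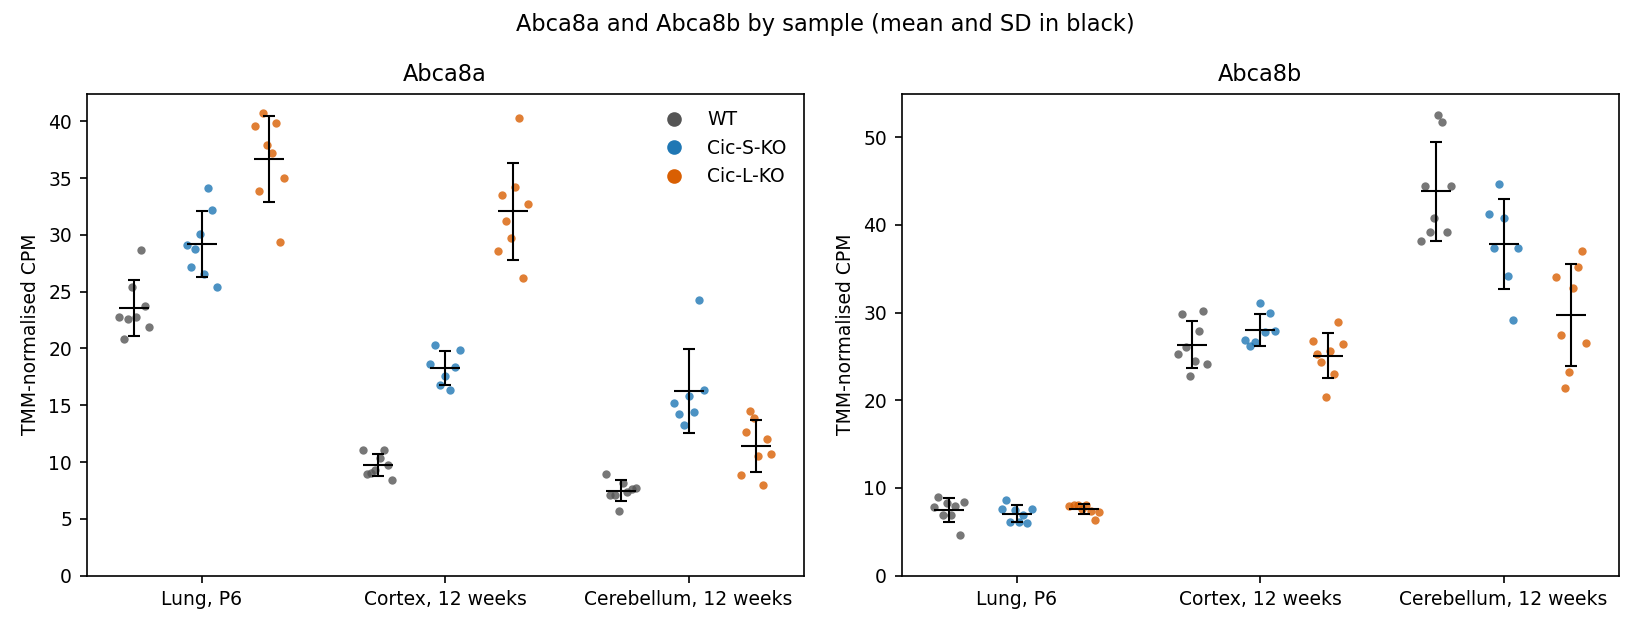
Each point is the level of Abca8a (left) or Abca8b (right) in a sample, in TMM-normalised CPM, with the mean and SD in black for WT, Cic-S-KO and Cic-L-KO in lung at postnatal day 6 and in cortex and cerebellum at 12 weeks. Abca8a separates all 3 genotypes in cortex, the Cic-S-KO cerebellum sample at 24.3 CPM stands above its group, and Abca8b is lowest in Cic-L-KO among the cerebellum groups.

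The comparison of the knockouts with each other uses no WT sample, but it reuses the knockout samples that the selection of Abca8a used. The selection asked that both knockouts be above WT and did not set which of them was higher. In cortex the Cic-S-KO level of Abca8a was below the Cic-L-KO level by a log2 difference of -0.81 ± 0.07 (SE; edgeR, adjusted p = 3.51e-10). In lung it was lower by -0.33 ± 0.07 (edgeR, adjusted p = 0.00277). In cerebellum it was higher in Cic-S-KO by 0.51 ± 0.13 (edgeR, adjusted p = 0.00745), and by 0.38 (edgeR, adjusted p = 0.0162) without replicate 6. Abca8a was the only member called in lung, where 12.2% of genes were called. In cortex 3 members were called against 33.9% of all genes, and in cerebellum 2 members against 12.4%. The members called beside Abca8a were Abca9 and Abca5 in cortex and Abca8b in cerebellum.

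The reversal between the brain regions was tested as a difference of differences, a contrast added after the values had been seen. The Cic-S-KO to Cic-L-KO difference of Abca8a was smaller in cortex than in cerebellum by -1.32 ± 0.15 on the log2 scale (edgeR, adjusted p = 2.32e-09), and by -1.20 (edgeR, adjusted p = 1.30e-09) without Cic-S-KO cerebellum replicate 6. With this contrast 2 members were called against 11.6% of genes, the other being Abca5. Split by knockout, the effects against WT are the values that chose Abca8a, so their differences between the regions are a description with no test. The Cic-L-KO effect on Abca8a was 1.11 ± 0.15 larger in cortex than in cerebellum on the log2 scale. The Cic-S-KO effect differed by -0.21 ± 0.15, and by -0.09 without Cic-S-KO cerebellum replicate 6. For the Cic-L-KO effect 2 members were called, Abca8a, from which nothing is read, and Abca8b, against 23% of genes. For the Cic-S-KO effect only Abca5 was called, against 4.5% of genes.

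Abca8b, the nearest paralogue of Abca8a, was called in 1 of 6 comparisons with WT, and there it was lower. In lung it was 4.63 to 8.95 CPM in WT, 6.06 to 8.67 in Cic-S-KO and 6.39 to 8.10 in Cic-L-KO. In cortex it was 22.8 to 30.2 CPM in WT, 26.2 to 31.1 in Cic-S-KO and 20.3 to 29.0 in Cic-L-KO. In both tissues the genotypes overlapped, and the log2 fold change of largest size was 0.09 ± 0.07, for Cic-S-KO cortex (edgeR, adjusted p = 0.443). In the cerebellum Abca8b fell in Cic-L-KO: it was 38.2 CPM at the lowest, 42.6 at the median and 52.6 at the highest in WT against 21.4, 30.1 and 37.0 in Cic-L-KO, with no overlap. The log2 fold change was -0.56 ± 0.11 (edgeR, adjusted p = 0.000844). In Cic-S-KO cerebellum it was 29.2, 37.4 and 44.7 CPM, with a log2 fold change of -0.21 ± 0.11 (edgeR, adjusted p = 0.253), or -0.16 (edgeR, adjusted p = 0.488) without replicate 6.

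The Cic-L-KO effect on Abca8b differed between the regions by 0.49 ± 0.13 on the log2 scale, cortex minus cerebellum (edgeR, adjusted p = 0.00464). Between the knockouts, Abca8b was higher in Cic-S-KO cerebellum than in Cic-L-KO cerebellum by 0.35 ± 0.11 (edgeR, adjusted p = 0.0461), and by 0.40 (edgeR, adjusted p = 0.0189) without Cic-S-KO replicate 6. That call was lost with no low-count filter (edgeR, adjusted p = 0.133) and with only the compared groups in the fit (edgeR, adjusted p = 0.0755). In Cic-L-KO cerebellum, Abca8a was therefore at a higher level than in WT while Abca8b was at a lower one. Against WT, 2 members were called in Cic-L-KO cerebellum, Abca8a and Abca8b, where 21.5% of genes were called. In Cic-S-KO cerebellum 1 member was called, Abca8a, where 8.23% of genes were called. Nothing is read from the Abca8a part of these counts, since Abca8a was chosen on these contrasts.

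Since Abca8a and Abca8b reads come from the same libraries, their ratio needs no normalisation between libraries. Abca8a made up 27.1% ± 2.65 (SD, n = 8) of the reads of the pair in WT cortex. The share was 39.5% ± 2.71 (n = 7) for Cic-S-KO cortex, and for Cic-L-KO cortex it was 56.0% ± 4.85 (n = 8). No cortex genotype overlapped another: the ranges were 22.98% to 30.3%, 36.1% to 43.7% and 47.5% to 63.7%. In lung Abca8a was already the main member of the pair, with WT at 75.9% ± 4.12, Cic-S-KO at 80.4% ± 2.95 and Cic-L-KO at 82.8% ± 1.12. In cerebellum WT was at 14.7% ± 2.24, Cic-S-KO at 30.1% ± 7.18 (27.6% ± 2.68 over the 6 samples without replicate 6) and Cic-L-KO at 28.3% ± 7.79. The WT cerebellum range of 12.3% to 19.1% overlapped that of Cic-L-KO, 18.6% to 40.4%, and not that of Cic-S-KO, 22.8% to 45.4%.

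Only the knockouts were compared with each other by a test. In cortex the Cic-S-KO minus Cic-L-KO difference of the share was -16.5 percentage points (two-sided exact permutation test over 6435 relabellings, p = 0.000311, adjusted over 3 tissues p = 0.000932). In lung it was -2.43 percentage points (exact permutation test, adjusted p = 0.0699). In cerebellum it was 1.86 percentage points (exact permutation test, adjusted p = 0.643), and without replicate 6 the difference was -0.694 (exact permutation test, adjusted p = 0.839). In cerebellum, then, the levels of Abca8a and of Abca8b were both higher with Cic-S-KO than with Cic-L-KO, and the share did not pass the test. With the reads of the pair summed, the log2 fold change over WT was 0.66 for Cic-L-KO cortex and -0.32 for Cic-L-KO cerebellum, the region where Abca8b supplies most reads of the pair.

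**Figure D3:**
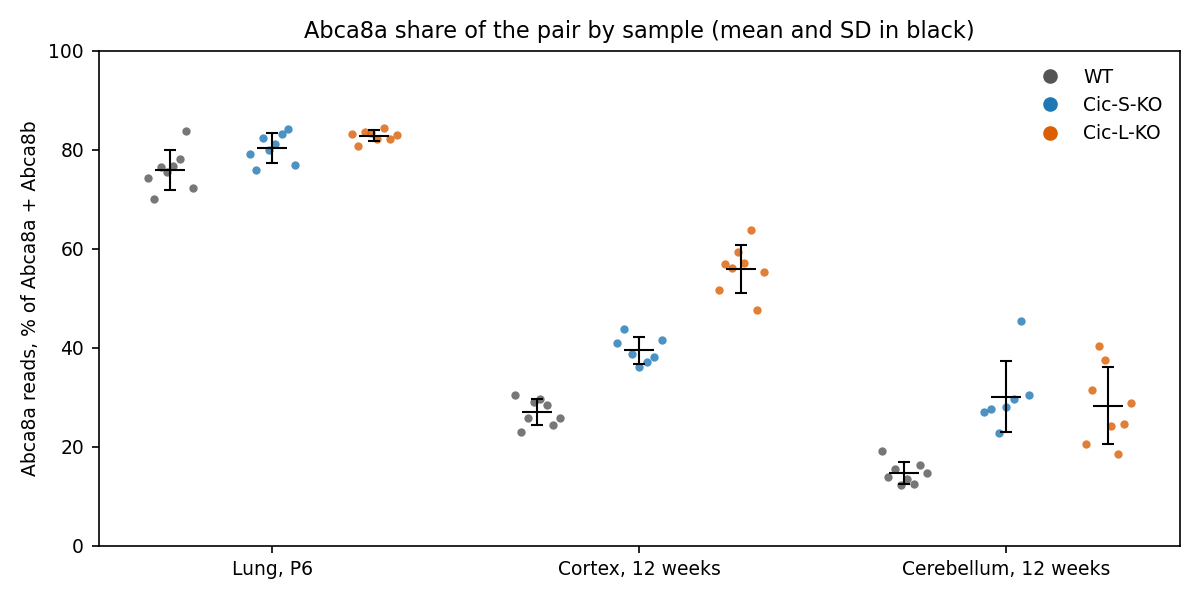
Each point is the percentage of Abca8a among the reads of Abca8a and Abca8b in a sample, with the mean and SD in black for the 3 genotypes in each tissue. The cortex genotypes form 3 separate bands with means of 27.1%, 39.5% and 56.0%, while the cerebellum knockouts overlap each other.

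Cic-S-KO cerebellum replicate 6 held the highest Abca8a and the lowest Abca8b of its group, 24.3 and 29.2 CPM, where the other 6 samples spanned 13.2 to 16.3 and 34.2 to 44.7 CPM. Its oligodendrocyte markers summed to 12460 CPM against 7785 to 9730 in the other samples, its fibroblast markers to 372 against 236 to 337, and its choroid plexus markers to 4237 against 150 to 2891. Oligodendrocyte precursor markers, 134 against 84.7 to 101.6, and microglia and macrophage markers, 101 against 69.3 to 90.1, were also highest there. Astrocyte markers, 4813 against 4923 to 5496, and neuron markers, 4259 against 4461 to 5002, were lowest there. Endothelial and mural sums lay within the range of the other samples. The part of this makeup in the Abca8a value was not tested.

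Abca5, the most distant member and the one with the highest brain level, was lower than WT in 2 of 6 comparisons, both in Cic-S-KO. In cortex it was 77.3 CPM at the lowest, 83.4 at the median and 94.0 at the highest in WT and 70.6, 73.6 and 77.9 in Cic-S-KO. The log2 fold change was -0.19 ± 0.04 (SE; edgeR, adjusted p = 0.00832), a small difference with ranges that overlap only at their edges. In Cic-S-KO cortex 2 members were called, Abca8a and Abca5, where 6.53% of genes were called. Nothing is read from the Abca8a part of this count or of the next, since Abca8a was chosen on these contrasts. In Cic-L-KO cortex Abca5 was 75.7 to 89.6 CPM with a log2 fold change of -0.04 ± 0.04 (edgeR, adjusted p = 0.452), and Abca8a was the only member called, where 43.2% of genes were called. Between the knockouts in cortex Abca5 was lower in Cic-S-KO by -0.15 ± 0.04 (edgeR, adjusted p = 0.00581).

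In lung Abca5 was 23.4 CPM at the lowest, 33.3 at the median and 37.5 at the highest in WT and 25.5, 27.1 and 34.9 in Cic-S-KO, so that the ranges overlapped. The log2 fold change was -0.24 ± 0.08 (edgeR, adjusted p = 0.0424), and the call was lost with only the compared groups in the fit (edgeR, adjusted p = 0.0537). In Cic-S-KO lung 2 members were called, Abca8a and Abca5, where 15.7% of genes were called, and in Cic-L-KO lung 1 member, Abca8a, where 4.89% of genes were called. Here too nothing is read from the Abca8a part of the counts. In cerebellum Abca5 was 91.6 to 105.9 CPM in WT, 95.6 to 109.1 in Cic-S-KO and 89.4 to 101.6 in Cic-L-KO, and no comparison of it passed. The Cic-S-KO effect on Abca5 differed between cortex and cerebellum by -0.20 ± 0.06 (edgeR, adjusted p = 0.0394), a call lost without Cic-S-KO cerebellum replicate 6 (edgeR, adjusted p = 0.0741). The difference between the knockouts in Abca5, cortex minus cerebellum, was -0.23 ± 0.06 (edgeR, adjusted p = 0.00532), and -0.22 (edgeR, adjusted p = 0.0103) without that library.

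Abca9, whose gene ends 4.771 kb from that of Abca8a in the annotation, passed in 0 of 6 comparisons with WT by edgeR and by DESeq2. Its means were 19.3 ± 1.97, 21.4 ± 2.41 and 18.9 ± 2.61 CPM (SD) in WT, Cic-S-KO and Cic-L-KO lung, and 11.2 ± 1.48, 12.8 ± 2.76 and 13.0 ± 2.02 CPM in cerebellum. In cortex it was 12.2 to 19.7 CPM in WT, 11.3 to 14.3 in Cic-S-KO and 14.7 to 19.3 in Cic-L-KO. The knockouts did not overlap each other in cortex, and Abca9 was lower with Cic-S-KO than with Cic-L-KO by a log2 difference of -0.34 ± 0.09 (edgeR, adjusted p = 0.00450), although neither passed against WT. Without adjustment, 1 of its 6 comparisons with WT passed by edgeR, that of Cic-S-KO cortex, with a log2 fold change of -0.21 ± 0.09.

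Abca6 had the lowest level of the cluster in brain, with 30 to 131 counted reads per brain library, and passed in 0 of 6 comparisons with WT by edgeR and by DESeq2. Lung means were 5.37 ± 1.30, 5.88 ± 1.01 and 6.70 ± 1.05 CPM for WT, Cic-S-KO and Cic-L-KO. Cortex means were 3.57 ± 0.543, 3.48 ± 0.610 and 4.16 ± 0.412 CPM, and cerebellum means 2.47 ± 0.930, 2.59 ± 0.711 and 2.32 ± 0.573 CPM. Its largest log2 fold change was 0.32 ± 0.14 in Cic-L-KO lung (edgeR, unadjusted p = 0.0278, adjusted p = 0.181). In cerebellum, where its counts were lowest, its log2 fold change had an SE of 0.22 for Cic-S-KO and 0.21 for Cic-L-KO, so that smaller differences were not detectable at this depth.

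**Figure D4:**
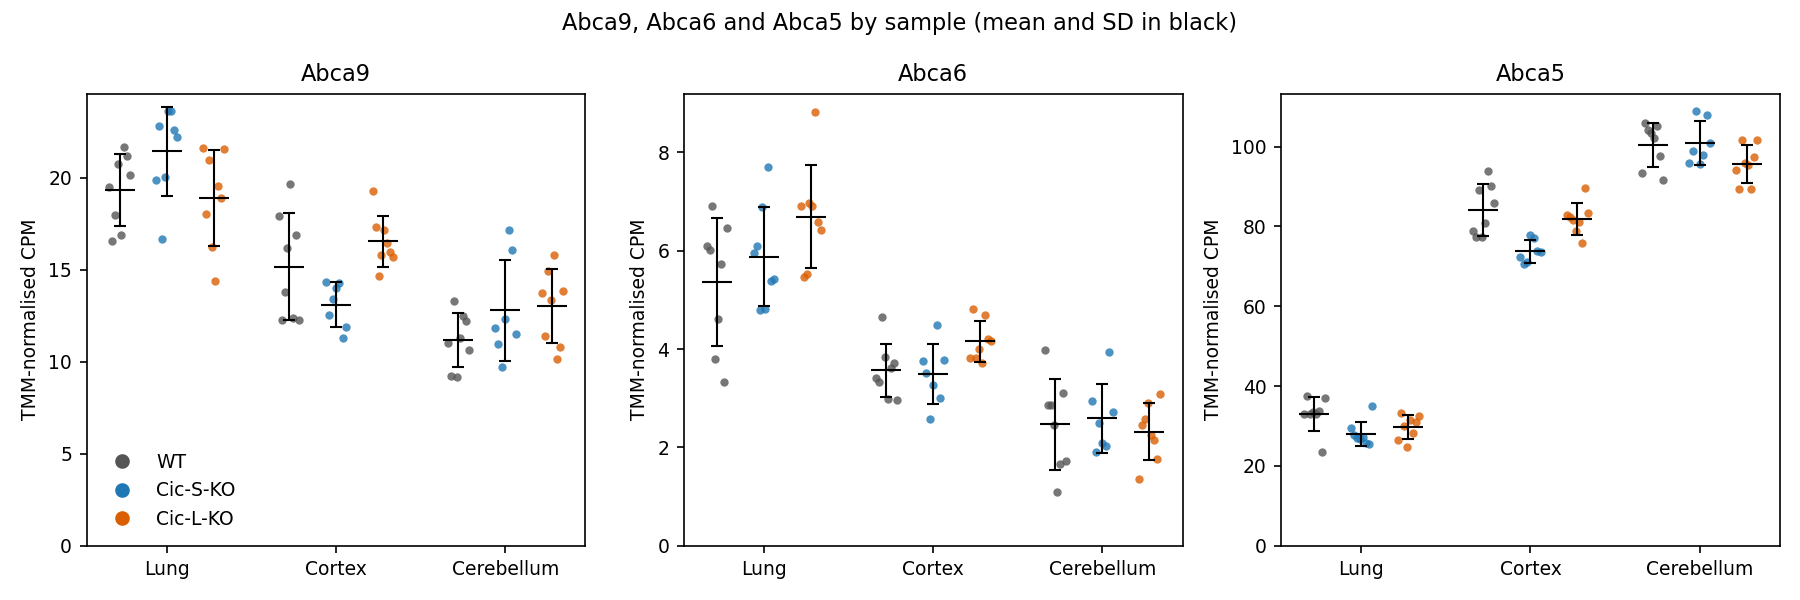
Each point is the level of Abca9, Abca6 or Abca5 in a sample, in TMM-normalised CPM, with the mean and SD in black for WT, Cic-S-KO and Cic-L-KO in each tissue. The genotypes overlap in most panels, Cic-S-KO lies lowest for Abca5 in cortex with a mean of 73.8 CPM, and the WT lung sample at 23.4 CPM stands below its group for Abca5.

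Of the nearest protein-coding genes outside the cluster, none was called in more than 2 comparisons with WT. On the lower coordinate side, 1700012B07Rik had at most 6 counts in any library and was not tested. Fam20a, a pseudokinase that assists secreted-protein phosphorylation, was called in 1 of 6 comparisons with WT, higher in Cic-L-KO cortex by 0.25 ± 0.10 on the log2 scale (edgeR, adjusted p = 0.0465). Prkar1a, a regulatory subunit of protein kinase A, was called by edgeR in 0 of 6 (2 at an unadjusted p under 0.05). On the other side, Map2k6, a kinase upstream of p38, begins 61.406 kb from Abca5 and was called by edgeR in 0 of 6 (0 at an unadjusted p under 0.05). The potassium channel Kcnj16, 630.317 kb away, was lower in Cic-S-KO cortex by -0.34 ± 0.06 (edgeR, adjusted p = 0.00212) and higher in Cic-L-KO cortex by 0.29 ± 0.06 (edgeR, adjusted p = 0.000290). Kcnj2, 728.448 kb away, was lower in Cic-L-KO cortex by -0.70 ± 0.13 (edgeR, adjusted p = 0.000102).

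**Figure D5:**
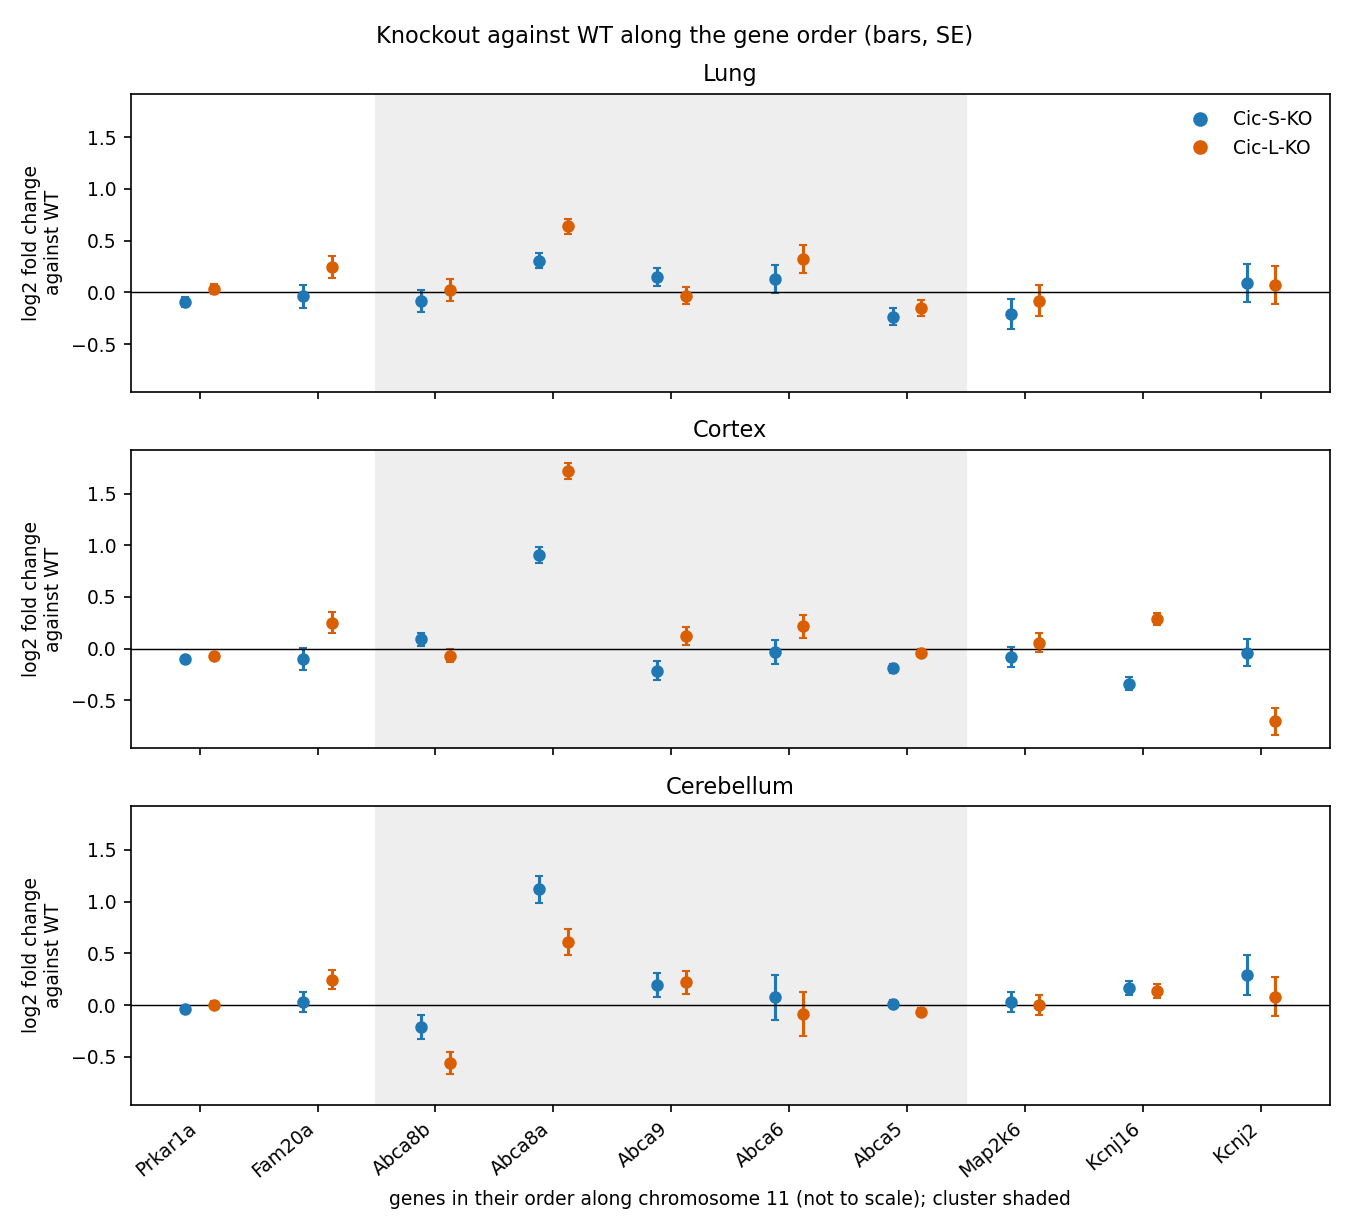
Points give the log2 fold change against WT, with its SE, of the 5 cluster members (shaded) and the nearest protein-coding genes in their order along chromosome 11, for Cic-S-KO and Cic-L-KO in the 3 tissues. Kcnj16 was not tested in lung and 1700012B07Rik in no tissue. Abca8a reaches 1.72 in Cic-L-KO cortex, between the adjacent Abca8b at -0.07 and Abca9 at 0.12. Outside the cluster, Kcnj2 is at -0.70, Kcnj16 at 0.29 and Fam20a at 0.25 in that contrast. Abca8b reaches -0.56 in Cic-L-KO cerebellum.

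The genes most like Abca8a over the 70 samples, by Pearson r of log2 CPM after each tissue mean was removed and among 14305 other genes, were Rhbdl3 (r = 0.76), Cygb (0.76), Matn4 (0.73), 2310022B05Rik (0.72) and Igsf3 (0.72). The points share genotype and library. After the mean of each of the 9 groups was removed, r was 0.55 for Rhbdl3, 0.34 for Cygb, 0.34 for Matn4, 0.21 for 2310022B05Rik and 0.15 for Igsf3. Rhbdl3, a rhomboid-like membrane protease, was at 19.97 ± 2.95 CPM in WT cortex, while Cic-S-KO cortex had 22.9 ± 3.18 CPM and Cic-L-KO cortex 40.6 ± 4.16 CPM. Cygb, the oxygen-binding globin cytoglobin, was 43.8 ± 3.55, 50.2 ± 6.93 and 70.6 ± 1.81 CPM in the same groups. Within the cluster r was 0.32 for Abca6, 0.28 for Abca9, -0.18 for Abca5 and -0.25 for Abca8b, and the order differed by tissue: in lung r was 0.08 for Abca8b and -0.46 for Abca5, and in cerebellum -0.47 for Abca8b and 0.06 for Abca5.

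Of the other ABCA transporters, 10 of the 11 listed had a row, and 7 were tested in lung, 7 in cortex and 6 in cerebellum. Against WT, 1 of 7 was higher in Cic-S-KO lung, 1 of 7 in Cic-L-KO lung, 1 of 7 in Cic-S-KO cortex and 3 of 7 in Cic-L-KO cortex, with none lower. In the last, 43.2% of all genes were called, so that the count is near the background. In cerebellum 1 of 6 was lower with Cic-S-KO, and with Cic-L-KO 1 was higher and 1 lower. Abca4, the retinoid and phospholipid importer of photoreceptors, rose in Cic-S-KO lung (log2 fold change 0.41 ± 0.09, edgeR, adjusted p = 0.00236), Cic-L-KO lung (0.39 ± 0.09, edgeR, adjusted p = 0.00805) and Cic-L-KO cortex (1.47 ± 0.34, edgeR, adjusted p = 0.00141). Abca7, a phospholipid transporter, rose in Cic-L-KO cortex (0.36 ± 0.06, edgeR, adjusted p = 3.25e-05) and Cic-L-KO cerebellum (0.21 ± 0.06, edgeR, adjusted p = 0.0138) and fell in Cic-S-KO cerebellum (-0.23 ± 0.06, edgeR, adjusted p = 0.0214). Abca2, a lysosomal transporter abundant in oligodendrocytes, rose in both cortex knockouts, by 0.17 ± 0.03 in Cic-S-KO (edgeR, adjusted p = 0.00371) and 0.11 ± 0.03 in Cic-L-KO (edgeR, adjusted p = 0.00731).

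A list of cholesterol and phospholipid efflux genes and their control by the sterol-sensing receptor LXR held 20 genes with a row. In Cic-L-KO cortex 7 of 19 tested were higher and 5 lower than WT, beside 43.2% of all genes called, and the list median log2 fold change was 0.01, as over all genes. In Cic-L-KO cerebellum 8 of 19 were higher and 1 lower, beside 21.5% of all genes called, with a median of 0.10 beside 0.00. In Cic-S-KO cortex 1 of 19 was higher and 0 lower, beside 6.53% of all genes called. The counts were 5 and 1 of 19 in Cic-S-KO cerebellum, beside 8.23%, and 5 and 1 of 20 in Cic-S-KO lung, beside 15.7%. In Cic-L-KO lung they were 1 and 0 of 20, beside 4.89%. Npc2, the lysosomal cholesterol carrier, rose in 4 of 6 comparisons, led by Cic-S-KO lung at 0.41 ± 0.07 (edgeR, adjusted p = 0.000391). Pltp, the phospholipid transfer protein, rose in 3, led by Cic-L-KO cortex at 0.37 ± 0.07 (edgeR, adjusted p = 0.000110).

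Sphingolipid and galactolipid synthesis, the source of the main myelin lipids, was covered by 21 genes with a row. In Cic-S-KO cortex 2 of 21 were higher and 2 lower, beside 6.53% of all genes called. In Cic-L-KO cortex 6 were higher and 4 lower, near the 43.2% called over all genes. In cerebellum the counts were 1 and 0 in Cic-S-KO, beside 8.23%, and 4 and 3 in Cic-L-KO, beside 21.5%. In lung they were 1 and 0 of 20 in Cic-S-KO, beside 15.7%, and 1 and 1 of 20 in Cic-L-KO, beside 4.89%. Gal3st1, which makes sulfatide, rose in 4 of 6 comparisons, in Cic-S-KO lung by 0.43 ± 0.09 (edgeR, adjusted p = 0.00217), in Cic-S-KO cortex by 0.37 ± 0.07 (edgeR, adjusted p = 0.00450) and in both cerebellum knockouts. Cers4, a ceramide synthase, rose in Cic-L-KO cortex by 0.44 ± 0.05 (edgeR, adjusted p = 2.64e-08), and Smpd2, a sphingomyelinase, by 0.47 ± 0.07 (edgeR, adjusted p = 1.30e-06).

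In bulk tissue, a change in the number of cells of a type and a change of RNA per cell cannot be told apart, so markers were measured beside Abca8a. Their counts stand beside the shares of all genes called against WT, which with Cic-S-KO were 15.7% in lung, 6.53% in cortex and 8.23% in cerebellum, and with Cic-L-KO 4.89%, 43.2% and 21.5%. No marker of the neural, endothelial, mural, fibroblast and choroid plexus lists was at 0 throughout a brain group.

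Of 12 oligodendrocyte markers in cortex, 2 were higher and 1 lower in Cic-S-KO, and 1 was higher and 3 lower in Cic-L-KO. Their summed level was 5156 to 7166 CPM in WT cortex, 5493 to 8409 in Cic-S-KO and 4941 to 6492 in Cic-L-KO. Set against Cic-L-KO, 8 were higher and 1 lower with Cic-S-KO in cortex, beside 33.9% of all genes called. For cerebellum 1 was higher and 1 lower, beside 12.4% of all genes called. In cerebellum 1 was higher and 1 lower in Cic-S-KO and 0 passed by edgeR in Cic-L-KO (1 at an unadjusted p under 0.05), with sums of 6527 to 10999 CPM in WT, 7785 to 12460 in Cic-S-KO and 7449 to 10496 in Cic-L-KO. Of 6 neuron markers in cortex, 2 were lower with Cic-S-KO and 4 with Cic-L-KO, with sums of 6255 to 6895 and 5114 to 5955 CPM against 7059 to 7714 in WT. In cerebellum 4 were lower in each knockout and 2 higher, Gad1 and Gad2, the enzymes that make the transmitter GABA. The neuron sums there were 4780 to 5507 CPM in WT, 4259 to 5002 in Cic-S-KO and 4432 to 4994 in Cic-L-KO.

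By list median, astrocyte markers differed between the knockouts in the same direction as Abca8a in both brain regions. With Cic-S-KO set against Cic-L-KO, 3 of 6 were lower in cortex, beside 33.9% of all genes called. The list median log2 difference was -0.21 beside 0.00 over all genes. In cerebellum 3 were higher and 1 lower, beside 12.4% of all genes called, with a median of 0.12 beside 0.00. For this difference, cortex minus cerebellum, 3 of 6 were lower, beside 11.6% of all genes called. Against WT the astrocyte markers did not follow Abca8a throughout. In cortex 1 was lower in Cic-S-KO (list median -0.02) and 1 higher in Cic-L-KO (0.13). In cerebellum 3 were higher in Cic-S-KO (0.10) and 2 lower in Cic-L-KO (-0.05). Their sum was 1856 to 2288 CPM in WT cortex, 1728 to 2278 in Cic-S-KO and 1983 to 2406 in Cic-L-KO, and in cerebellum 4309 to 5192, 4813 to 5496 and 4369 to 4980, so the genotypes overlapped. Microglia and macrophage markers had medians of the same signs between the knockouts, -0.13 in cortex and 0.04 in cerebellum. Of these 5 markers, 1 was lower in cortex and 0 were called by edgeR in cerebellum.

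Of 6 endothelial markers 3 were higher in Cic-L-KO cortex and 6 in Cic-L-KO cerebellum, with 0 called by edgeR in Cic-S-KO cortex (1 at an unadjusted p under 0.05) and 0 in Cic-S-KO cerebellum (5 at an unadjusted p under 0.05). Their sum was 71.7 to 121.4 CPM in WT cortex, 66.1 to 99.6 in Cic-S-KO and 99.8 to 135.6 in Cic-L-KO, and in cerebellum 59.9 to 90.9, 56.7 to 99.5 and 107.5 to 125.3. Of 7 mural cell markers, Cic-S-KO cortex had 1 higher, Cic-L-KO cortex 4, Cic-S-KO cerebellum 3 and Cic-L-KO cerebellum 5. The mural sum was 85.2 to 137.5 CPM in WT cortex, 104.4 to 126.5 in Cic-S-KO and 116.6 to 158.0 in Cic-L-KO, and in cerebellum 110.3 to 135.2, 112.2 to 165.9 and 148.2 to 183.8.

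Of 11 fibroblast markers, Cic-S-KO cerebellum had 3 higher and Cic-L-KO cerebellum 7, while in cortex 1 was higher in each knockout and 3 were lower in Cic-L-KO. Their sum was 168 to 272 CPM in WT cortex, 216 to 268 in Cic-S-KO and 191 to 257 in Cic-L-KO, and in cerebellum 216 to 259, 236 to 372 and 293 to 348. In Cic-L-KO cerebellum the endothelial, mural and fibroblast sums all lay above their WT ranges. Of 6 choroid plexus markers, 2 were higher in Cic-L-KO cortex, Clic6 and Kcne2, with a list median log2 fold change of 1.57 beside 0.01 over all genes. The choroid plexus sum there was 18.6 CPM at the lowest, 413 at the median and 1306 at the highest, against 21.4, 29.1 and 591 in WT cortex and 9.35, 19.3 and 622 in Cic-S-KO cortex. In cerebellum it was 41.0 to 3083 CPM in WT, 150 to 4237 in Cic-S-KO and 457 to 3462 in Cic-L-KO.

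In lung, 4 mural markers were lower with Cic-S-KO, while Abcc9 and Kcnj8 were higher with Cic-L-KO, and the sums were 1442 to 1864 CPM in WT, 1271 to 1537 in Cic-S-KO and 1488 to 1808 in Cic-L-KO. Of the endothelial markers Cdh5 and Kdr were lower with Cic-S-KO, and 0 were called by edgeR with Cic-L-KO (0 at an unadjusted p under 0.05), with sums of 3406 to 4293 CPM in WT, 2928 to 4101 in Cic-S-KO and 3412 to 4579 in Cic-L-KO. Of 10 fibroblast markers tested, 1 was higher and 2 lower with Cic-S-KO, and 1 was higher with Cic-L-KO, with sums of 7685 to 8596 CPM in WT, 6594 to 8146 in Cic-S-KO and 7136 to 9026 in Cic-L-KO. Of 5 microglia and macrophage markers in lung, 3 were higher with Cic-S-KO and 1 with Cic-L-KO, with none lower. Their sums were 186 to 237 CPM in WT, 231 to 318 in Cic-S-KO and 215 to 265 in Cic-L-KO. Of 8 lung epithelial markers, 3 were higher with Cic-S-KO and 2 with Cic-L-KO, with none lower. Of the 6 genes of the astrocyte list, 2 were higher in lung with each knockout, with none lower. The part of these cell types in the levels of Abca8a and Abca8b was not tested.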

How the data were processed

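Polyadenylated RNA from flash-frozen lung, cortex and cerebellum was sequenced, per the labels' protocols. The deposited table holds raw read counts, whole numbers per Ensembl identifier, for 50789 identifiers and 70 samples. STAR 2.7 and GRCm38.p6 are named in the submitters' processing notes, while the counting program, annotation and strand setting are not given in the sources used here. Gene symbols came from GENCODE M21, which held 50725 of these identifiers once version suffixes were dropped. The members and the gene lists were chosen with earlier results of these data known. Of 128 listed genes, 8 had no row and were not analysed here. No gene of chromosome 1 had a row, so the shares of all genes called and the search for genes like Abca8a leave that chromosome out.

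Counts were tested with edgeR 4.0.16 (R 4.3.3): filterByExpr, TMM within each tissue or over both brain regions, and a robust quasi-likelihood fit holding all genotypes. The p-values were adjusted by Benjamini-Hochberg over all genes tested, and an adjusted p under 0.05 was a call. SE values were derived from the F statistic. Exon length was the union of annotated exons. The share of the pair was tested by exact permutation. Named genes were the members, the 3 nearest protein-coding genes on each side, at most 3 genes per list of those called most often, and the 5 genes most like Abca8a. The fits were tested on simulated data. Alternatives were DESeq2 1.42.0, RLE, other filters, the pair summed, only the compared groups, the replicate block and left-out libraries.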

Additional observations from a re-analysis of the deposited data

Results flagged for a closer look

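Within groups of 7 or 8 samples, 6 of 54 sets of values held a sample far from the others by Dixon's criterion, where chance gives about 2.7 (1 in 20, or 5%). In Cic-S-KO cerebellum replicate 6, Abca8a was 24.3 CPM and made up 45.4% of the reads of Abca8a and Abca8b, both the highest of the group. WT lung replicate 7 had the lowest Abca8b, 4.63 CPM, and the lowest Abca5, 23.4 CPM. In Cic-S-KO lung replicate 8 Abca5 was highest at 34.9 CPM, and in Cic-L-KO lung replicate 6 Abca6 was highest at 8.81 CPM. Leaving out each of the 3 lung libraries changed no call among the 15 values of the members in lung.

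Knockout effects differed between cortex and cerebellum in 5 comparisons (edgeR). For Abca8a the Cic-L-KO effect was larger in cortex by 1.11 on the log2 scale, a description since Abca8a was chosen on values it is built from, and the difference of Cic-S-KO from Cic-L-KO was -1.32, cortex minus cerebellum. For Abca8b the Cic-L-KO effect differed by 0.49. For Abca5 the Cic-S-KO effect differed by -0.20, and the difference of Cic-S-KO from Cic-L-KO by -0.23.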

How the results depend on the processing

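Of 522 recomputed member values, 510 kept direction and call, 8 lost the call, 1 gained it (Abca8b, Cic-S-KO against Cic-L-KO cortex with no low-count filter, adjusted p = 0.0448) and 3 reversed. The Abca8a values against WT are among them, and nothing is read from their calls. DESeq2, RLE and a mean of at least 50 counts changed none of 65 values each. With Abca8a and Abca8b summed, the pair's log2 fold change was -0.32 in Cic-L-KO cerebellum and 0.07 in Cic-S-KO cerebellum. It was 0.43 for WT cerebellum against cortex and 0.28 for the Cic-S-KO effect, cortex minus cerebellum. The sum holds the Abca8a reads, so its values built on knockouts against WT are a description with no test. Features called numbered 0 in Cic-S-KO cerebellum, 1 in Cic-L-KO cerebellum and 1 between the cerebellum knockouts. They numbered 2 for the Cic-S-KO effect and 1 for the Cic-L-KO effect. Nothing is read from the part of the sum in the counts built on WT. The sum is led by Abca8b in brain WT samples. With only the compared groups, members called were 1 in Cic-S-KO lung, 1 between the cerebellum knockouts and 0 for the Cic-S-KO effect. With no filter they were 1 between the cerebellum knockouts and 0 for the Cic-S-KO effect, and without Cic-S-KO cerebellum replicate 6 they were 0 for the Cic-S-KO effect. The share of the pair in cerebellum was -0.694 percentage points without that library. The cause was not tested.

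Replicate numbers, taken from the sample titles, were not taken as a pairing. Same-numbered samples correlated above 0.1 in 16 of 24 pairs in lung, 8 of 22 in cortex, 9 of 22 in cerebellum and 17 of 23 across the brain regions, where 10 of 23 correlated best with their own number. In Cic-S-KO cortex and cerebellum, most titles carry another number than the library name. Within each brain region, the pairs and the block therefore matched some samples with unlike library numbers. With the replicate block, 1 member was called between the cerebellum knockouts, Abca8a, and Abca8b lost its call (log2 difference 0.36, edgeR, adjusted p = 0.106). The cortex share of the pair kept its call (sign-flip permutation test, adjusted p = 0.0469), and the block changed no other member's call.

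Counts of all genes called moved by over 1.5 times in Cic-L-KO lung (1285 with the block against 817), Cic-S-KO cortex (732 with no filter, 654 with only the compared groups and 627 with the block against 1108), Cic-S-KO cerebellum (883 without replicate 6 and 591 with the block against 1370) and the Cic-S-KO effect (446 with no filter against 812). Depth limits Abca6 most, with as few as 30 reads in a library.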
